A study of Mus musculus x Mus spretus with 8 samples.

Results

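The regions described here are 570 non-overlapping bins of 2 Mb on mouse chromosomes 1, 7, 8, 10, 12, 13, 14, 15, 16, 17 and 18, in the mm10 build. They came from a female hybrid fibroblast line, so many reads could be assigned to 1 of 2 parental genomes, here called genome 1 and genome 2 as in the deposited counts. Genes were placed in a bin by their start. A bin was kept where at least 100 reads in every library carried a genome, which held for 570 of the 670 bins with a gene on these 11 chromosomes. The series as a whole had 1349 bins with a gene, and 548 bins of the other chromosomes met the same minimum. The chromosomes were selected on their genome shares in these same libraries, so the shares are given as a description with no test, and only the summed reads of a bin and of its genes were tested.

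Patski is a fibroblast line from a cross of C57BL/6 and SPRET/EiJ, and its parents differ at enough bases that RNA from the 2 copies of a gene can be told apart. The 8 bulk RNA-seq libraries were wild type (WT) and homozygous null for Stc1, Pygo1 or Rlim, with 2 libraries each, all grown in DMEM with 10% fetal bovine serum. The 2 libraries of each knockout were made from independent mutants, while for the WT pair no source used here gives the origin, so every p-value measures the spread between these libraries alone. Which parent is genome 1 is likewise not stated there. Stc1 encodes a secreted glycoprotein hormone, Pygo1 a nuclear co-activator of Wnt signalling, and Rlim an X-linked ubiquitin ligase known for its part in X inactivation.

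A diploid hybrid cell carries 1 copy of each autosome from each parent, and a gene that is read equally from both gives about as many reads from either genome. Cultured lines often gain, lose or exchange whole chromosomes or long pieces of them, and neighbouring genes then shift together. A gain or loss of one parental copy changes the share and the summed RNA, whereas a replacement of one copy by the other changes the share with little change in the sum. Regulation of a single gene can move the share or the level of its own bin as well. DNA copy number was not measured in these libraries, and in bulk RNA a change carried by some cells cannot be told apart from a smaller change carried by all of them, nor fewer cells of a type from less RNA per cell.

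The libraries held 73128996 to 81500061 counts, and 50.64 to 52.64% of them carried a genome. The bins took 42.8 to 44.6% of a library's counts, with 17732715 to 20019514 reads that carried a genome. A bin held a median of 27 genes (3 to 239), and the median number of its reads with a genome was 9859 to 11553 by library. The Wilson 95% interval of a bin's share had a median half-width of 0.788 to 0.919 points and at most 9.21 points, which covers counting error only. In 234 bins a single gene supplied over 50% of the reads with a genome, and such a bin reads that gene more than its stretch of chromosome.

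Of the 6 knockout libraries, 1 had its targeted gene below every other library, Pygo1-KO 2 for Pygo1, and the labels are used below as names. Stc1 was at 3.84 and 3.15 CPM (counts per 1000000 counts of the scaled library) in WT, 3.67 and 68.4 in Stc1-KO 1 and 2, 13.2 and 5.95 in Pygo1-KO and 13.5 and 12.4 in Rlim-KO. Pygo1 was at 2.49 and 2.44 CPM in WT and at 2.5 and 0.674 in Pygo1-KO 1 and 2, and Rlim was at 57.2 and 51.4 in WT and 71.9 and 64.2 in Rlim-KO. A null allele can still be transcribed, and the files do not show which bases were changed. Of 12 fibroblast markers, 6 or 7 were over 1 CPM in each library, with sums of 2710 to 5980 CPM. Most of each sum came from Fn1, the fibronectin gene. It gave 2230 of 3460 CPM in WT 1, 4540 of 5980 in Stc1-KO 2 and 1540 of 2710 in Rlim-KO 1. The collagen genes Col1a2 and Col3a1, together with Lum, Pdgfrb and Thy1, were under 1 CPM in every library. The 6 epithelial markers summed to 2.14 to 22.4 CPM, the 6 leukocyte markers to 2.08 to 7.9, and the 5 endothelial markers to 1.56 to 101, the highest being Stc1-KO 2. In that library Emcn, Kdr, Pecam1 and Tek were each under 1 CPM, so nearly all of its endothelial sum came from Cdh5.

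The WT libraries gave the reference against which every other library was read. Their shares differed by a median of 0.62 points over the 570 bins, the largest difference was 8.6 points, and none reached 10. Within WT the level was not the same along a chromosome. On chromosome 8 the median share of 10 bins passed from 79.1% to 56.8% in WT 1 and from 78.9% to 57.2% in WT 2 at position 72000001. On chromosome 7 it passed from 47.0% to 28.6% and from 47.1% to 27.4% at 44000001, and on chromosome 13 from 53.4% to 67.4% and from 52.9% to 69.3% at 86000001. A share of 50% is therefore not the starting point of most bins, and each library was compared with WT bin by bin. The other pairs differed more, except Rlim-KO. The median difference within a pair was 5.18 points in Stc1-KO, 3.03 in Pygo1-KO and 0.53 in Rlim-KO, and 126, 94 and 2 bins differed by 10 points or more.

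A bin is called shifted where its genome 1 share lay at least 10 percentage points from the mean of the WT libraries. The number of shifted bins was 63 in Stc1-KO 1 (26 higher and 37 lower), 82 in Stc1-KO 2 (59 and 23), 163 in Pygo1-KO 1 (112 and 51), 162 in Pygo1-KO 2 (44 and 118), 31 in Rlim-KO 1 (4 and 27) and 36 in Rlim-KO 2 (4 and 32). Each WT library, set against the other, had 0. Over all 1118 bins of the genome that met the read minimum, the shares shifted by as much were 6.8%, 12.3%, 26.7%, 32.5%, 15.3% and 15.7% in the same order, and 0.0894% in either WT library. On the 11 chromosomes they were 11.1%, 14.4%, 28.6%, 28.4%, 5.4% and 6.3%. The bins were chosen with these shares in view, so nothing is read from the differences between the sets of percentages. Both Pygo1-KO libraries had a similar number of shifted bins with opposite leanings, most being higher in Pygo1-KO 1 and lower in Pygo1-KO 2.

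**Figure D1:**
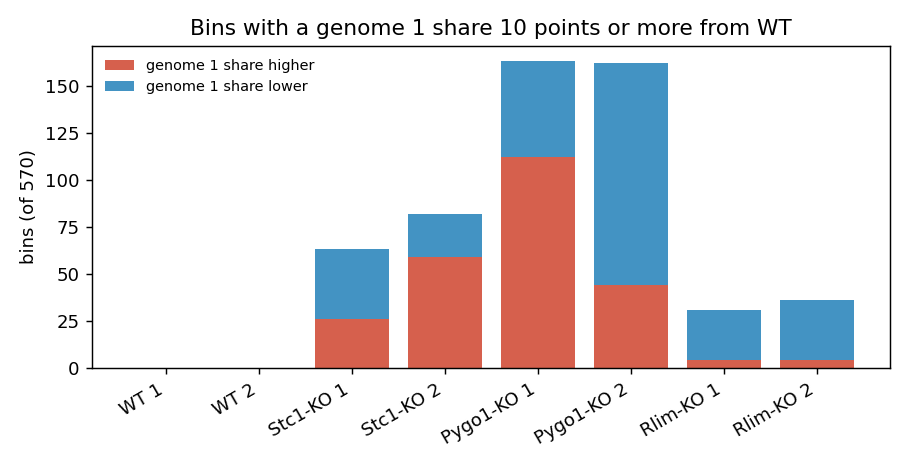
Number of bins, of 570, whose genome 1 share lay 10 points or more above (red) or below (blue) the WT mean, one stacked bar for each library; each WT library is set against the other. The bars of the Pygo1-KO libraries reach 163 and 162 bins, those of Rlim-KO 31 and 36, and both WT libraries are at 0.

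The overlap of shifted bins between the 2 libraries of a label differed by label. In Stc1-KO, 9 bins shifted in the same direction in both, which is 14.3% of those of Stc1-KO 1 and 11% of those of Stc1-KO 2, and 4 shifted in opposite directions. In Pygo1-KO, 77 bins did so (47.2% and 47.5%) and 27 were opposite. In Rlim-KO, 25 bins did so (80.6% and 69.4%) and 0 were opposite. The Rlim-KO libraries differed by a median of 0.53 points, no more than the 0.62 of the WT pair. How far those 2 mutants are independent was not tested. Over the 6 knockout libraries, 271 bins were shifted in none, 137 in 1, 106 in 2, 39 in 3, 14 in 4, 3 in 5 and 0 in all 6.

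Chromosome medians show where the shifts lay. Chromosome 14 had the widest range, with medians of 60.6% and 60.5% in WT, 95.9% in Pygo1-KO 1 and 51.5% in both Pygo1-KO 2 and Stc1-KO 1. Chromosome 17 stood at 54.9% and 54.8% in WT and 39.6% in Pygo1-KO 2. Chromosome 16 stood at 54.9% and 55.2% in WT, 43.6% and 41.9% in Pygo1-KO and 48.1% and 48.0% in Rlim-KO. Chromosome 15 stood at 38.7% and 37.9% in WT, and at 51.4% in Stc1-KO 2, 53.0% in Pygo1-KO 1 and 47.2% in Pygo1-KO 2. On chromosome 8 the medians moved both ways, from 59.9% and 59.1% in WT to 68.9% and 69.4% in Pygo1-KO and to 52.8% and 51.8% in Rlim-KO. Chromosome 13 was lower in all 6 knockout libraries, at 54.9 to 58.9% against 63.6% and 63.7% in WT. Chromosomes 12 and 18 were the quietest, with knockout medians of 51.0 to 52.3% and 50.6 to 52.8%, at most 2 of 48 and 3 of 41 bins shifted in a library, and no segment of shifted shares.

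**Figure D2:**
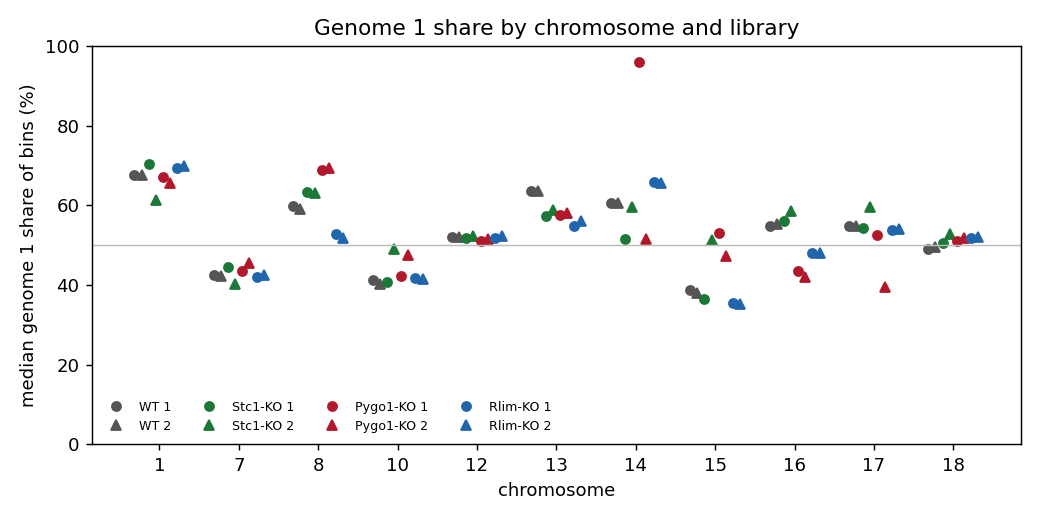
Median genome 1 share (percent) over the bins of each of the 11 chromosomes, one point for each library; circles are library 1 and triangles library 2 of each label, and the grey line marks 50%. Chromosome 14 in Pygo1-KO 1 stands alone at 95.9%, while the points of chromosomes 12 and 18 lie together.

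Runs of shifted bins were joined into segments. A share segment is a run of at least 3 neighbouring bins shifted in the same direction, and runs with 1 other bin between them were joined. There were 25, namely 3 in Stc1-KO 1, 3 in Stc1-KO 2, 9 in each Pygo1-KO library, 0 in Rlim-KO 1 and 1 in Rlim-KO 2. A dose segment is a run of at least 5 bins in which the running median of log2 CPM over the WT mean, from all reads with or without a genome, passed 0.3 or -0.3. There were 33 dose segments, 11 higher and 22 lower, with 6, 10, 7, 7, 1 and 2 in the same order of libraries. Share segments were 6 to 118 Mb long and dose segments 10 to 48 Mb. The median level of all reads stayed within 0.3 of WT in 18 of the 25 share segments, and 10 of the 33 dose segments held no bin with a shifted share.

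The name given to these chromosomes, that they keep both genomes, did not hold for 2 long stretches and for some single bins. In Pygo1-KO 1 most genes of chromosome 14 had nearly all their reads from genome 1. The segment ran from 6000001 to 124000000 and held 45 bins, of which 42 were shifted, and its median share was 95.9% against 60.6% and 60.5% in WT. Reads of genome 2 were at a median log2 of -3.64 against WT, those of genome 1 at 0.23, and all reads at -0.33 (SD 0.34 over the bins). Of 364 genes with at least 50 reads carrying a genome in each library, 357 had a higher share than in WT, and the median moved from 62.3% to 99.2%. In 270 genes the share was at least 90% and in 189 at least 99%. Another 43 lay between 80 and 90%, 43 between 20 and 80%, and 8 under 20%, and all of those 8 were also under 20% in WT. Of 326 genes that lay between 20 and 80% in WT, 245 were now at 90% or more. Single bins that passed 90% elsewhere included chromosome 1 from 192000001 in Stc1-KO 2, at 92.2% against 66.3% in WT 1. Such bins were not particular to the knockout libraries. A share of 90% or more was found in 8 and 9 bins of WT and 23 and 8 of Stc1-KO. It was found in 39 and 9 bins of Pygo1-KO and 9 and 8 of Rlim-KO. Shares of 10% or less were found in 4 bins of each WT library and 3 or 4 of each knockout library.

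Clu encodes the secreted chaperone clusterin and gave the most reads of the segment. Its level was 9660 and 10300 CPM in WT, 4920 and 1050 in Stc1-KO, 4070 and 3180 in Pygo1-KO, and 6930 and 7200 in Rlim-KO, and every knockout library lay below both WT libraries. Its share was 99.8% in Pygo1-KO 1, against 78.2% in both WT libraries and 54.4% in Pygo1-KO 2. Tkt, the transketolase of the pentose phosphate pathway, had a share of 99.7% against 59.9% and 60.1% in WT, at 770 CPM against 1300 and 1410. Nisch had a share of 98.4% against 59.6% and 60.0% with 1090 CPM against 993 and 1030, so that its total level was not below WT. Ctsb, the lysosomal protease cathepsin B, had a share of 99.7% against 48.6% and 48.7%. Lrp10 and Acin1 did not reach the level of their neighbours, with 75.7% against 46.1% and 48.2%, and 71.5% against 38.5% and 38.4%.

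Most of chromosome 14 moved the other way in Pygo1-KO 2 and in Stc1-KO 1. In Pygo1-KO 2 the segment from 32000001 to 68000000 had 14 of 16 bins shifted, a median share of 45.8% against 58.4% and 57.5% in WT, genome 1 at -0.62, genome 2 at 0.11 and all reads at -0.27 (SD 0.38). Its share of Ctsb was 33.6%. Dose segments of the same library lay at 12000001 to 22000000 (-0.42, SD 0.23) and 76000001 to 114000000 (-0.37, SD 0.19). In Stc1-KO 1 the stretches 12000001 to 48000000 and 52000001 to 90000000 were at -0.34 (SD 0.17) and -0.40 (SD 0.24) for all reads. There genome 1 was at -0.55 and -0.66 and genome 2 at -0.03 and -0.02, and 5 neighbouring bins from 52000001 to 62000000 passed the share threshold, with a median of 45.0% against 59.8% and 57.9%. Of the 27 shifted bins of chromosome 14 in Pygo1-KO 2, 25 were lower in share and 2 higher. The 2 higher ones, from 116000001 to 120000000, were too few for a segment and stood at 99.9% and 75.8%, against 66.4% and 58.9% in WT 1. Genome 2 was at -8.96 and -2.00 in them and all reads at -1.02 and -1.26. The next bin, from 120000001, differed from WT by -14.2 points. In this stretch Gpc6, a cell-surface glypican that gave all reads of the first bin, had a share of 99.9% against 66.4% and 68.4% in WT, and Tgds, Gpr180 and Abcc4 had 100%, 99.2% and 93.9% against 80.1%, 68.5% and 57.2% in WT 1. These genes were picked after their values were seen. The Stc1 gene itself lies on this chromosome at 69029238 to 69041804. Its bin, from 68000001 to 70000000, had shares of 31.4% and 30.4% in WT and 23.3% and 20.8% in Stc1-KO. It had 57.5% and 23.4% in Pygo1-KO and 34.4% and 33.5% in Rlim-KO. In Stc1-KO 2 the Stc1 gene alone had a share of 7.3%, on 2533 reads with a genome. In WT the gene had 77.4% and 81.5%, on 146 and 124 reads. All reads of the bin were at 0.47 in Stc1-KO 2 and -0.14 in Stc1-KO 1. The bin's share in Stc1-KO 2 therefore includes this change of Stc1, and its share without the gene is not given here.

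The other long stretch was the start of chromosome 1 in Stc1-KO 1. Of 18 bins from 4000001 to 44000000, 17 were shifted, and the median share was 96.0% against 69.8% and 69.9% in WT, 61.2% in Stc1-KO 2, 67.9% and 69.5% in Pygo1-KO and 70.2% and 70.1% in Rlim-KO. Genome 2 was at -3.17, genome 1 at 0.09 and all reads at -0.37 (SD 0.26). The edge was sharp. The last bin inside, from 42000001, differed from WT by 24.7 points and the next by -0.3. At the level of genes it lay in the 248 kb between Fhl2 and Nck2. Fhl2 (43123074 to 43196984), a LIM-domain co-regulator, had a share of 98.9% against 53.2% and 53.6% in WT, while Nck2 (43444579 to 43570515), an adaptor of receptor kinases, had 69.4% against 77.0% and 75%. Within 30 Mb before the gap, 64 of 77 genes had a share of at least 90% in Stc1-KO 1, against 4 and 3 in WT. Within 30 Mb after it, 3 of 105 genes did, against 3 and 2.

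**Figure D3:**
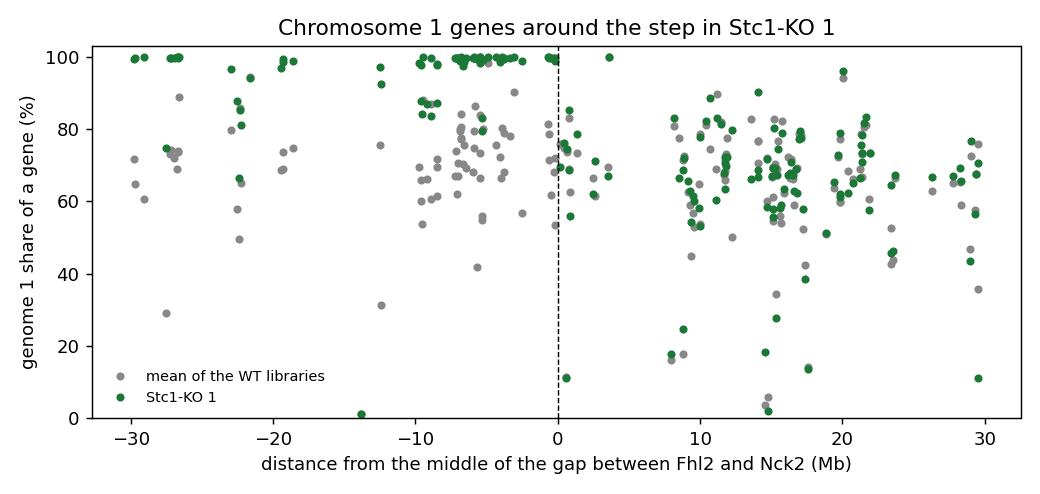
Genome 1 share (percent) of each gene with at least 50 reads carrying a genome in every library, by distance in Mb from the middle of the gap between Fhl2 and Nck2 on chromosome 1; green is Stc1-KO 1 and grey the mean of the WT libraries. Before the gap 64 of 77 green points lie at 90% or more, and after it 3 of 105.

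The genes with the most reads in this stretch showed the same split between share and level. Hs6st1, a heparan sulfate sulfotransferase, stood at 572 and 601 CPM in WT and 439 in Stc1-KO 1, with shares of 67.5%, 66.6% and 99.7%. Actr1b, a subunit of dynactin, stood at 248, 274 and 195 CPM with shares of 75.4%, 75.6% and 98.5%. Dst, a large cytoskeletal linker, was an exception to full loss, with a share of 86.8% against 66.3% and 65.9%. Neurl3, a ubiquitin ligase gene of the same stretch, had a share of 99.8% in Stc1-KO 1 while its level was 54.8 CPM against 11.7 and 12.4 in WT. It was also at 73.8 CPM in Stc1-KO 2, where its share was 40.8%, so its level rose in both libraries on different genome shares (log2 2.41, SE 0.17, edgeR quasi-likelihood adjusted p = 0.00397). Neurl3 was called higher in Pygo1-KO and Rlim-KO too, at 96.7 to 124 CPM.

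Chromosome 13 held a step in 3 libraries. Up to position 88000000 the last 5 bins lay 8.6 points below WT in Pygo1-KO 1 and 8.5 below in Pygo1-KO 2, and the next 5 lay 13.1 and 6.8 points above. Total reads of the distal part were higher as well. From 88000001 to 120000000 all reads of Pygo1-KO 1 were at 0.69 (SD 0.25), with 16 of 16 bins above WT, genome 1 at 0.97 and genome 2 at 0.15. In Pygo1-KO 2 the stretch 90000001 to 100000000 was at 0.35 (SD 0.12), with genome 1 at 0.55 and genome 2 at 0.12. Stc1-KO 1 had a step of the same sense further along, from -8.9 to 4.3 points at 98000001, and from there to 120000000 all reads were at 0.41 (SD 0.19) in 11 of 11 bins. The Rlim-KO libraries showed no such step, and Rlim-KO 2 had a dose segment of -0.50 (SD 0.25) from 84000001 to 94000000. The median log2 over its 19 genes with at least 50 reads carrying a genome in each library was only -0.14.

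**Figure D4:**
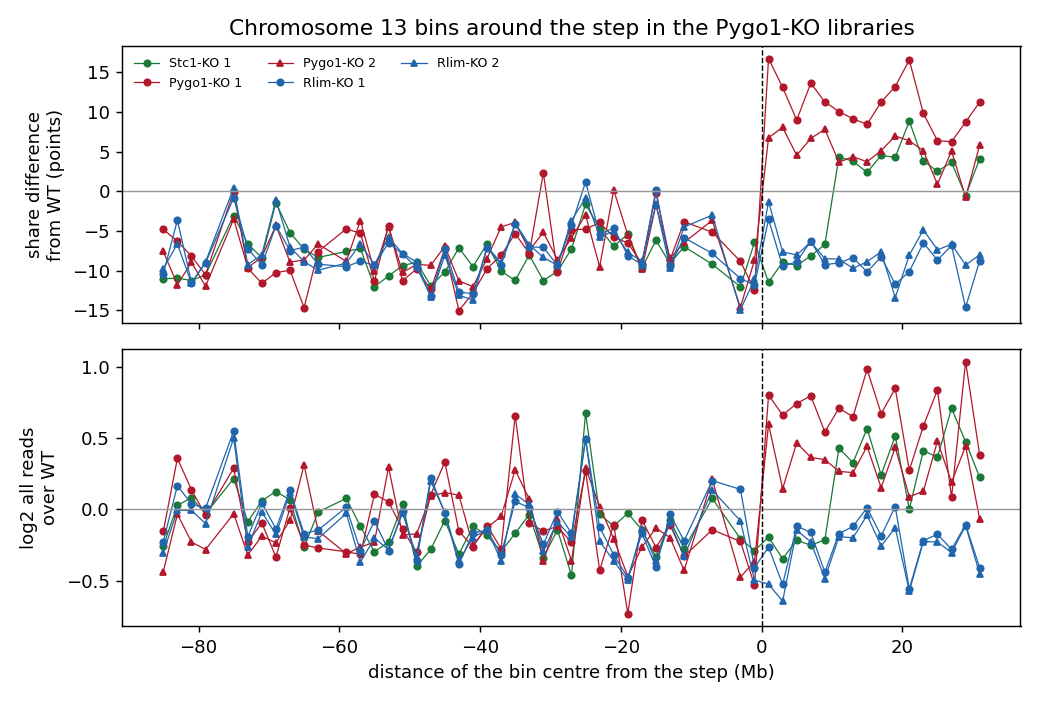
Bins of chromosome 13 by distance in Mb from the boundary at 88 Mb, with the difference in genome 1 share from WT in points (top) and log2 of all reads over the WT mean (bottom), one line for each of 5 knockout libraries; Stc1-KO 2 is not drawn. The Pygo1-KO 1 line passes from -8.6 to 13.1 points at the boundary (medians of 5 bins) and stays above 0 in total reads in all 16 distal bins, while both Rlim-KO lines stay below 0 in share beyond it.

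Single genes of the distal part had values of the same sense. F2r, the thrombin receptor, stood at 107 and 101 CPM in WT, 225 in Pygo1-KO 1 and 177 in Pygo1-KO 2, with shares of 59.3%, 60.1%, 74.8% and 68.2%. Kif2a, a microtubule-depolymerising kinesin, stood at 31.0 and 27.5 CPM in WT, 62.3 and 42.6 in Pygo1-KO, 41.4 and 36.4 in Stc1-KO and 29.7 and 26.3 in Rlim-KO. Btf3, a general transcription factor and ribosome-associated protein, stood at 146 in both WT libraries, 211 and 156 in Pygo1-KO and 91.4 and 95.4 in Rlim-KO. For all of these genes Pygo1-KO 1 was the highest library.

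On chromosome 8 both Pygo1-KO libraries shifted over the same 2 segments with the same ends. From 80000001 to 96000000 the share was 69.4% and 69.0% against 56.3% and 57.2% in WT, and from 104000001 to 128000000 it was 71.3% and 71.6% against 56.9% and 57.3%. The Rlim-KO libraries lay on the other side of WT in both, at 47.4% and 46.9% and at 48.2% and 47.2%. Genome 2 was at -0.73 and -0.64 in the first and at -0.80 and -0.65 in the other, and genome 1 at 0.12, 0.18, 0.10 and 0.19. Just inside the second segment the difference was 13.5 points in Pygo1-KO 1, and just before it 0.7. A dose segment of Pygo1-KO 1 from 90000001 to 104000000 was at -0.32 (SD 0.23), with genome 1 at -0.02 and genome 2 at -0.76. Calr, the endoplasmic reticulum chaperone calreticulin, had shares of 54.0% in both WT libraries, 68.1% and 67.8% in Pygo1-KO and 42.8% and 42.2% in Rlim-KO, with levels of 874, 888, 932, 995, 891 and 856 CPM in that order. Its share was thus above WT in one label and below in another while its level stayed between 856 and 995. Cdh16, a cadherin best known from kidney epithelium, followed with 52.0% and 51.7% in WT, 64.1% and 64.9% in Pygo1-KO, and 42.3% and 42.1% in Rlim-KO. Aars, the alanyl-tRNA synthetase, stood at 768 and 833 CPM in WT and 477 and 559 in Pygo1-KO.

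The single share segment of the Rlim-KO label lay on chromosome 8 too. From 78000001 to 84000000 the share was 43.0% in Rlim-KO 2 against 55.8% and 57.1% in WT, with genome 1 at -0.24, genome 2 at 0.35 and all reads at 0.06 (SD 0.17). Rlim-KO 1 had a share of 42.8% over the same bins. Its gene Tecr was at 36.3% in Rlim-KO 2 against 46.1% in WT 1. The segment rests on 3 bins that passed the threshold narrowly, the last one inside at -10.1 points and the next one outside at -9.6.

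Chromosome 15 was shifted towards genome 1 in 3 libraries. In Stc1-KO 2 the segment from 68000001 to 104000000 had all 17 bins shifted, with a share of 52.4% against 36.5% and 36.1% in WT. Genome 2 was at -0.93, genome 1 at 0.11 and all reads at -0.44 (SD 0.22). A second segment of the same library, 2000001 to 26000000, had genome 1 at 0.32, genome 2 at -0.47 and all reads at -0.05 (SD 0.22). In Pygo1-KO 1 the segment from 2000001 to 68000000 had 23 of 25 bins shifted, a share of 57.9%, genome 1 at 0.45 and genome 2 at -0.47, and all reads at -0.01 (SD 0.25). From 74000001 to 100000000 the share was 51.5%, with genome 1 at 0.48, genome 2 at -0.22 and all reads at 0.06 (SD 0.18). From 74000001 to 100000000 Stc1-KO 2 stood at 56.3% and WT at 39.2% and 38.6%, so both knockout libraries were above WT, with a lower total in Stc1-KO 2 and a total near WT in Pygo1-KO 1. In Pygo1-KO 2, 2 short segments passed the share threshold and a dose segment from 72000001 to 90000000 was at 0.33 (SD 0.09).

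Myh9, the heavy chain of non-muscle myosin, shows the pattern of distal chromosome 15 in a highly expressed gene. It stood at 3040 and 3190 CPM in WT, 3390 and 2490 in Stc1-KO, 3200 and 3740 in Pygo1-KO and 3150 and 3390 in Rlim-KO. Its shares were 33.5% and 33.8% in WT, 31.3% and 49.4% in Stc1-KO, 48.0% and 41.0% in Pygo1-KO and 30.6% and 30.5% in Rlim-KO. Stc1-KO 2 was the lowest library in level and the highest in share. Plxnb2, a semaphorin receptor, had shares of 48.6% and 48.9% in WT, 66.3% in Stc1-KO 2 and 60.6% in Pygo1-KO 1. Lgals1, which encodes galectin-1, had 65.4% and 66.0% in WT, 76.5% in Stc1-KO 2 and 73.6% in Pygo1-KO 1. Pabpc1, the poly(A)-binding protein, had a share of 38.2% and 38.1% in WT and 58.6% in Pygo1-KO 1.

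Chromosome 16 was shifted towards genome 2 in both Pygo1-KO libraries with almost no change of the total. In Pygo1-KO 2 the segment ran from 2000001 to 94000000 with 37 of 38 bins shifted, a share of 41.6%, genome 1 at -0.38, genome 2 at 0.42 and all reads at 0.05 (SD 0.28). In Pygo1-KO 1 it ran from 2000001 to 60000000 with 24 of 27 bins shifted, a share of 43.5%, genome 1 at -0.46, genome 2 at 0.33 and all reads at -0.01 (SD 0.27), and a second one from 74000001 to 90000000 was at 0.07 (SD 0.30). Eif4g1, a scaffold of translation initiation, had shares of 50.9% and 50.1% in WT, 36.1% and 34.6% in Pygo1-KO and 41.5% and 41.8% in Rlim-KO. App, the amyloid precursor gene, had 58.8% and 58.4% in WT and 42.2% and 42.1% in Pygo1-KO. Litaf had 52.7% and 53.2% in WT, and 44.7% and 41.1% in Pygo1-KO. Stc1-KO 1 showed the reverse combination on this chromosome, a lower total with an unshifted share. All reads were at -0.45 (SD 0.15) from 2000001 to 46000000 and at -0.38 (SD 0.23) from 58000001 to 90000000, with no bin above WT in either. Genome 1 was at -0.42 and genome 2 at -0.48 in the first, and 0 bins were shifted in share.

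On chromosome 17, Pygo1-KO 2 had 27 of 28 bins shifted from 10000001 to 72000000. The share was 37.8% there against 54.9% in both WT libraries, with genome 1 at -0.72, genome 2 at 0.21 and all reads at -0.18 (SD 0.35). Dose segments of this library lay at 4000001 to 18000000 (-0.44, SD 0.24) and 36000001 to 50000000 (-0.38, SD 0.18). Another lay at 80000001 to 96000000 (-0.39, SD 0.18). From 82000001 to 90000000 the share was 50%, genome 1 was at -0.77 and genome 2 at 0.01, and the difference passed from -11 points in the last bin to 2.8 in the next. Hsp90ab1, the constitutive cytosolic HSP90, stood at 3660 and 3730 CPM in WT and 2600 in Pygo1-KO 2, with shares of 58.6%, 58.5% and 44.2%. It stood at 5900 CPM with a share of 66.5% in Stc1-KO 2. That library had a dose segment from 46000001 to 60000000 at 0.39 (SD 0.52), which starts beyond Hsp90ab1 and does not hold it. At the level of genes its share stepped up before that start, between Runx2 and Supt3. Medians of 5 genes passed there from -4.4 to 6.3 points. Whether Hsp90ab1 belongs to this shift was not tested. Complement component C3 had a share of 19.3% in Pygo1-KO 2 against 41.7% and 42.1% in WT. Its share was also below WT in Stc1-KO 1 (27.5%), Pygo1-KO 1 (26.7%) and Rlim-KO (27.9% and 28.2%), with levels of 2150 to 9520 CPM in the 6 knockout libraries against 1020 and 1000 in WT. In Pygo1-KO 1 the stretch from 54000001 to 80000000 was at 0.38 (SD 0.37), carried by genome 2 at 0.62 with genome 1 at 0.12.

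Shorter segments lay on chromosomes 1, 10, 13 and 18. In Pygo1-KO 2 the share of chromosome 1 from 160000001 to 170000000 was 58.5% against 72.5% in WT 1, with genome 2 at 0.72, genome 1 at -0.03 and all reads at 0.28 (SD 0.24). Stc1-KO 2 had a lower total over nearly the same stretch, at -0.52 (SD 0.30) from 160000001 to 176000000, and at -0.35 (SD 0.37) from 186000001 to 196000000. Atp1b1, a subunit of the sodium pump, stood there at 503 and 473 CPM in WT, 243 in Stc1-KO 2 and 678 in Pygo1-KO 2. Prrc2c was at 158 CPM in Stc1-KO 2 against 298 and 284 in WT, and its share was 99.5% against 64.6% and 64.1%, while the share of Atp1b1 was 61.2% against 69.9% and 70.5%. On chromosome 10, Stc1-KO 2 had a share of 59.1% against 48.0% in WT 1 from 32000001 to 38000000. That stretch holds Hdac2, a histone deacetylase gene (43.8% against 33.2% and 30.5%). Dose segments of the same library and chromosome lay at 8000001 to 18000000 (-0.30, SD 0.50) and 96000001 to 110000000 (-0.41, SD 0.38). In Stc1-KO 1 the first bins of chromosome 13, from 2000001 to 10000000, were lower by a median of 11 points, and the edge bins lay at -11 and -10.5 points inside and -3.0 outside. On chromosome 18 there was 1 dose segment, in Stc1-KO 2 from 40000001 to 50000000 at 0.39 (SD 0.44). The median log2 over its 23 genes with at least 50 reads carrying a genome in each library was 0.0. Chromosomes 7 and 12 had no segment of either kind in any library.

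Dose segments with both genomes moving the same way formed a separate group. On chromosome 8, Stc1-KO 2 was higher from 70000001 to 90000000 at 0.43 (SD 0.11), with genome 1 at 0.43, genome 2 at 0.55, and 10 of 10 bins above WT. It was also higher from 104000001 to 122000000 at 0.40 (SD 0.19), with 9 of 9 bins above WT. Pygo1-KO 1 was higher from 8000001 to 26000000 at 0.39 (SD 0.28), with genome 1 at 0.35 and genome 2 at 0.44. In Stc1-KO 2 the stretch 8000001 to 22000000 was at 0.36 (SD 0.48), with genome 1 at 0.31 and genome 2 at 0.23. Over genes with at least 50 reads carrying a genome in each library, the median log2 of these stretches was only 0.12 and 0.15. On chromosome 15 the Rlim-KO libraries were lower over overlapping stretches. Rlim-KO 1 was at -0.47 (SD 0.41) from 30000001 to 42000000 and Rlim-KO 2 at -0.42 (SD 0.33) from 30000001 to 52000000, with genome 1 at -0.48 and -0.45, genome 2 at -0.40 and -0.42, and 0 shifted bins. Pabpc1 stood at 811 and 774 CPM in WT and 591 and 548 in Rlim-KO, and Sema5a, an axon guidance gene, at 252 and 248 in WT and 89.5 and 93.3 in Rlim-KO.

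Sorted by which genome lay at least 0.3 from WT on the log2 scale, the 25 share segments fell into several kinds. Genome 1 was higher and genome 2 lower in 5 segments of 42 bins, and their totals lay between -0.05 and 0.08. Genome 1 was lower and genome 2 higher in the 2 long segments of chromosome 16, with 65 bins and totals of -0.01 and 0.05. Genome 2 alone was lower in 7 segments of 120 bins, with totals of -0.44 to -0.13, and genome 1 alone was lower in 4 segments of 53 bins, with totals of -0.39 to -0.18. Genome 1 alone was higher in 3 segments of 19 bins, with totals of 0.06 to 0.71. Genome 2 alone was higher in 4 segments of 18 bins, with totals of -0.0 to 0.28. Of the dose segments, both genomes were higher in 3 and lower in 6.

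**Figure D5:**
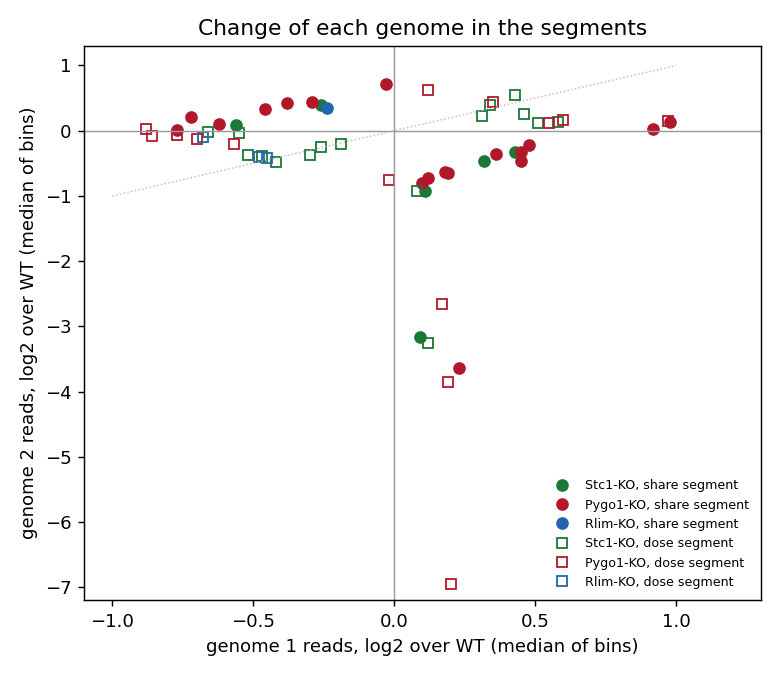
Each share segment (filled circles) and dose segment (open squares) by the median log2 change over WT of its genome 1 reads (horizontal) and genome 2 reads (vertical), coloured by label; the dotted line marks equal change. The points far below the rest are the chromosome 1 start of Stc1-KO 1 (genome 2 at -3.17 and -3.25) and chromosome 14 of Pygo1-KO 1 (-2.66 to -6.95), and genome 1 lies between 0.09 and 0.23 in all of them.

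Over the summed reads of bins, the edgeR test of each label against WT called few bins. These tests did not enter the choice of the bins. In Stc1-KO 3 of the 570 bins passed an adjusted p of 0.05 (2 higher and 1 lower), in Pygo1-KO 12 (7 and 5), and in Rlim-KO 3 (0 and 3). Of all 1230 bins tested over the genome, 0.407% were called in Stc1-KO (0.244% higher and 0.163% lower), 2.36% in Pygo1-KO (1.22% and 1.14%) and 1.71% in Rlim-KO (0.813% and 0.894%). Of the 570 bins, 3, 12 and 3 are read against these backgrounds and stand near or below them. At an unadjusted p under 0.05 the test gave 114, 149 and 99 of the 570 bins. The matching share of all 1230 bins is not given here, so nothing is read from these counts. The counts rested on single libraries. Without Stc1-KO 1 they were 191, 175 and 105, without Stc1-KO 2 69, 169 and 111, without WT 1 0, 0 and 1, and without WT 2 all 3 were 0. They were 2, 11 and 9 without Pygo1-KO 1, and 2, 3 and 7 without Pygo1-KO 2. Without either Rlim-KO library all 3 counts were 0. In each of these fits the lone library of a label was assumed to vary like the others.

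In 16 of the 18 calls, which fell in 13 bins, 1 gene gave over 50% of the bin's change. The bin of Fn1, which encodes fibronectin, rose in both Stc1-KO (log2 0.87, SE 0.11, adjusted p = 0.0438) and Pygo1-KO (log2 0.86, SE 0.11, adjusted p = 0.0347). Fn1 stood at 2230 and 2340 CPM in WT, 3970 and 4540 in Stc1-KO, 3810 and 4560 in Pygo1-KO and 1540 and 1590 in Rlim-KO. The rest of the bin was at 0.1 in both libraries of Stc1-KO. The bin of Tsc22d1, a leucine-zipper gene of chromosome 14, fell in Stc1-KO (log2 -0.68, SE 0.07, adjusted p = 0.0257) and Pygo1-KO (log2 -0.53, SE 0.07, adjusted p = 0.0347), with Tsc22d1 at 1410 and 1400 CPM in WT and 831 to 914 in those 4 libraries. The bins of Nrg1, a ligand of ErbB receptors, rose in the same 2 labels, both at log2 0.78. In Rlim-KO the bin of Sema5a fell (log2 -1.25, SE 0.22, adjusted p = 0.0477), inside the dose segments of chromosome 15. All of these comparisons share the WT libraries. The bins of Gm10566 and Gm2546 fell in Pygo1-KO and Rlim-KO. Both genes are processed pseudogenes, and reads of such copies can belong to their parent gene.

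The bins called inside the distal chromosome 13 part were those of Arsb (92000001 to 94000000, log2 0.64, SE 0.11, adjusted p = 0.0442) and Arhgef28 (96000001 to 98000000, log2 0.48, SE 0.09, adjusted p = 0.0469), both higher in Pygo1-KO. Arsb encodes a lysosomal sulfatase. Outside Arsb, the rest of its bin was at 0.86 in Pygo1-KO 1 and 0.23 in Pygo1-KO 2. On chromosome 14 the bins of Psmd6, a proteasome subunit (log2 -0.62), and Arf4, a small GTPase (log2 -0.42), fell in Pygo1-KO, where the 2 libraries had opposite share shifts and lower totals. On chromosome 15 the bin of Dab2, an endocytic adaptor, rose in Pygo1-KO (log2 0.67, SE 0.12, adjusted p = 0.0469), with Dab2 at 241 and 239 CPM in WT and 415 and 541 in Pygo1-KO.

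Of 8452 genes tested in these bins, 41 were called in Stc1-KO (24 higher and 17 lower), 195 in Pygo1-KO (137 and 58) and 101 in Rlim-KO (59 and 42). The background over all 17839 genes was 0.577% (0.286% and 0.291%), 2.35% (1.54% and 0.807%) and 1.4% (0.785% and 0.617%). At an unadjusted p under 0.05 the counts were 1436, 1763 and 1398. The matching share of all 17839 genes is not given here, so nothing is read from them. Each label's percentage inside segments can be set beside that outside them. The 2 kinds of segment overlap, and a gene in both is counted in each. In Pygo1-KO, 71 of 2987 genes in share segments were called (2.38%), 37 of 1422 in dose segments (2.6%) and 113 of 5128 in neither (2.2%). In Stc1-KO these were 8 of 897 (0.892%), 11 of 2542 (0.433%) and 28 of 5738 (0.488%), and in Rlim-KO 1 of 47, 4 of 91 and 96 of 8314 (1.15%). The counts changed with single libraries here too. They were 2073, 1694 and 1271 without Stc1-KO 1, 589, 1702 and 1270 without Stc1-KO 2, 0, 2 and 0 without WT 1, and 0, 4 and 0 without WT 2. They were 5, 19 and 3 without Rlim-KO 1 and 5, 19 and 4 without Rlim-KO 2, and Pygo1-KO had 125 without Pygo1-KO 1 and 95 without Pygo1-KO 2.

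Among the largest called changes, Ltbp2, a matrix protein of the fibrillin-binding family, was at 11.3 and 11.1 CPM in WT, 94.7 and 136 in Stc1-KO, 203 and 221 in Pygo1-KO and 179 and 177 in Rlim-KO. It rose in all 3 labels (log2 3.37, 4.25 and 3.99, adjusted p = 0.00223, 0.000499 and 0.000843), and lies on chromosome 12, which had no segment. These 3 comparisons share the WT libraries. Serpine2, a protease inhibitor, rose in Stc1-KO from 1.15 and 0.965 CPM to 9.89 and 16.7. It was called higher in Pygo1-KO too, at 26.3 and 10.8 CPM. Pfkl, the liver-type phosphofructokinase, was called higher in all 3 labels. It rose from 222 and 233 CPM in WT to 639 and 698 in Stc1-KO. It stood at 688 and 514 in Pygo1-KO and 645 and 649 in Rlim-KO. Pde1b, a cyclic nucleotide phosphodiesterase on chromosome 15, rose in Pygo1-KO from 1.34 and 1.82 to 32.4 and 45.2, and its share was 88.1% and 86.0% there. The serum amyloid genes Saa1, Saa2 and Saa3 rose in Pygo1-KO, Saa3 from 3.01 and 3.11 to 307 and 107, but reads of these near copies may not be separated. Saa1 and Saa3 were called higher in Rlim-KO too. Cebpd, an inflammatory transcription factor, rose in Rlim-KO from 13.8 and 15.5 to 75.5 and 74.4, and Zfp521 in Stc1-KO from 3.39 and 3.15 to 19.6 and 14.4. Both were called higher in the other labels as well, Cebpd at 39.6 to 62.3 CPM and Zfp521 at 6.65 to 9.07. Mdga1 rose in Rlim-KO from 18.1 in both to 69.0 and 68.0.

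Among the genes that fell, Pck2, the mitochondrial PEP carboxykinase on chromosome 14, passed in Stc1-KO from 315 and 344 CPM to 117 and 131 (log2 -1.41, SE 0.14, adjusted p = 0.0148). It stood at 180 and 149 in Pygo1-KO with shares of 99.8% and 56.6%, so 2 libraries of opposite share had similar levels. Anpep, an aminopeptidase, passed in Stc1-KO from 11 and 11.2 to 2.8 and 1.94, Ank, a pyrophosphate transporter, from 54.1 and 55.7 to 21.9 and 22.0, and Ntn5 and Masp1 fell as well. Ucp2, a mitochondrial carrier, passed in Pygo1-KO from 90.5 and 96.1 to 20.6 and 19, with Tmem178, Hes1 and Nupr1 also lower. Hes1, a target of Notch on chromosome 16, passed from 25.7 and 28.5 to 9.5 and 14.2. Pck2 and Nupr1 were called lower in all 3 labels, and Ank and Ucp2 were called lower in Rlim-KO too. In Rlim-KO, Slc6a18, an amino acid transporter gene, passed from 99.8 and 102 to 7.42 and 8.6, and Sox8, Clcn4, Pcdhgb5 and Galnt14 fell too. The share of Galnt14 was 99.7 to 100% in every library.

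Imprinted genes are known for reads from 1 parental copy in at least some tissues. Of 33 listed genes 31 lay in the bins, and not all of those with a share were near 0 or 100%. The share of Kcnq1ot1 stayed between 0 and 0.3% in all libraries, that of Peg3 between 3.4 and 4.1%, and that of Impact between 1.8 and 3.6%. That of H19 lay between 98.6 and 100% in the 6 libraries with enough reads for a share, which leaves out Pygo1-KO. Others lay between, with Trappc9 at 41.2 to 45.4%, Ube3a at 36.0 to 45.4%, Snrpn at 12.7 to 19.5%, Plagl1 at 10.4 to 15%, and Mkrn3 at 2.8 to 33.3% where it had enough reads. Igf2r, a growth factor receptor gene of chromosome 17, had shares of 98.8% and 99.1% in WT, 94.0% in Pygo1-KO 2 and 97.7 to 99.3% in the others. Its level was 190 CPM in Pygo1-KO 2, the lowest of the 8 libraries, against 370 and 378 in WT (label against WT log2 -0.38, SE 0.29, adjusted p = 0.51). Of 19 imprinted genes tested 1 was called, Ascl2, higher in Pygo1-KO (adjusted p = 0.0383) and Rlim-KO (adjusted p = 0.0351), at no more than 0.475 CPM. The median log2 over the list was 0.09, -0.04 and 0.18 in Stc1-KO, Pygo1-KO and Rlim-KO, against 0.01, 0.01 and 0.03 over all tested genes of the bins.

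A list of 24 growth control genes lay wholly in the bins and all 24 were tested. In Rlim-KO 1 gene was called, Tert, the catalytic subunit of telomerase (log2 -2.35, SE 0.36, adjusted p = 0.0386), and in the other labels 0. Tert stood at 6.11 and 5.31 CPM in WT and 1.01 to 2.04 in the 6 knockout libraries, all below WT. Rb1, the retinoblastoma tumour suppressor, had a share of 94.9% in Pygo1-KO 1 and a level of 18.8 CPM, against 18.8 and 17.8 in WT. Lats2, a kinase of the Hippo pathway, had a share of 99.9% and a level of 41.6 CPM against 47.1 and 45.5. Both genes of chromosome 14 had levels within or near the WT values while nearly all their reads came from genome 1. Of 26 chromosome segregation genes 8 lay in the bins, and 0 of them were called in any label. Medians of the growth control list were 0.08, -0.11 and 0.03.

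Among markers of other cell types inside the bins, Cdh1, the epithelial cadherin of chromosome 8, fell in Pygo1-KO (log2 -5.08, SE 0.61, adjusted p = 0.0161) and Rlim-KO (log2 -4.18, SE 0.57, adjusted p = 0.0298). It stood at 9.52 and 8.91 CPM in WT, 20.1 and 6.36 in Stc1-KO, 0.201 and 0.344 in Pygo1-KO and 0.498 and 0.514 in Rlim-KO. The summed epithelial markers stood at 11.4 CPM in both WT libraries, 22.4 and 7.61 in Stc1-KO, 2.14 and 2.3 in Pygo1-KO and 4.65 and 5.04 in Rlim-KO. Cdh1 made up most of the sum in WT, and Cldn7 was at 0 in all libraries but Stc1-KO 1. The other members did not go the same way in Rlim-KO, where Epcam stood at 2.48 and 2.67 CPM against 0.651 and 1.14 in WT (adjusted p = 0.0879). The median log2 of the 4 tested epithelial markers was 0.08 in Stc1-KO, -0.23 in Pygo1-KO and 0.77 in Rlim-KO. Their part in the shifts of chromosome 8 was not tested.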

How the data were processed

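RNA was sequenced on an Illumina GAIIx in 8 libraries, per the labels. The submitters' processing notes name featureCounts, Cufflinks, HISAT2 2.0.5 and the build mm10. The role of each, the annotation, the strand setting and how reads were split by genome are not given in the sources used here. The authors deposited 1 table of raw counts for 49670 genes, with all reads, reads of genome 1 and reads of genome 2. Of these, 49411 were placed by GENCODE M21, and 329 genes whose genome reads exceeded all their reads were left out.

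Counts were summed over 2 Mb bins, and shares were taken as genome 1 over both genomes. Levels are CPM scaled by TMM, and the log2 changes of segments are medians over bins against the WT mean with no test. Bins (1230) and genes (17839) of the whole genome were tested with edgeR 4.0.16 (glmQLFit and glmQLFTest, R 4.3.3), all 4 groups in 1 fit without covariates, Benjamini-Hochberg adjusted over all rows, with a threshold of 0.05. The scripts were tested on simulated data. DESeq2 1.42.0, other bin sizes, thresholds and filters, a replicate block and leaving out each library were tried as alternatives.

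Named genes are those with the most reads carrying a genome in a segment, the first and last of a segment, up to 5 called genes in each direction and label with at least 5 CPM, and listed genes. The gene of most change in a called bin, the genes beside a step and marker genes that were called were added after their values were seen. Members and lists were chosen with earlier results of these data known. Some genes that this rule names are not reported here. No sequence is printed.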

Additional observations from a re-analysis of the deposited data

How the results depend on the processing

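The counts of shifts and of calls moved with the settings, and the direction of every listed share difference stayed. Over the 6 knockout libraries 537 shifted bins became 1324 at 5 points and 169 at 15, the 25 share segments became 80 and 9, and the 33 dose segments became 77 at a log2 of 0.2 and 15 at 0.4. Leaving out each WT library in turn gave 536 to 546 shifted bins, 28 to 29 share segments and 31 to 33 dose segments. Share differences that came under 10 points were those of chromosome 13 in Stc1-KO 1, of chromosome 16 from 74000001 in Pygo1-KO 1 and of chromosome 8 in Rlim-KO 2.

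The edgeR counts of 3, 12 and 3 bins in Stc1-KO, Pygo1-KO and Rlim-KO became 59, 107 and 59 with DESeq2, 0, 62 and 330 with the compared groups alone, and 11, 27 and 12 with 1 Mb bins. With 4 Mb bins Pygo1-KO had 6, and with the median of the bins set to 0 Stc1-KO had 1. The 41, 195 and 101 called genes became 168, 398 and 245 without a filter, 501, 797 and 591 with DESeq2, and 0, 797 and 3782 with the compared groups alone. Leaving out 1 library gave 0 to 191, 0 to 175 and 0 to 111 bins and 0 to 2073, 2 to 1702 and 0 to 1271 genes. The cause was not tested.

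The replicate numbers do not pair the libraries, since deviations of same-numbered libraries correlated at -0.157 to 0.044 over genes. With the replicate block 0, 0 and 2 bins and 8, 50 and 8 genes were called. Each group had 2 libraries, the WT pair differed little, and a stretch with few expressed genes or few reads that carry a genome gave no bin. A shift under 10 points, or over fewer than 3 bins, is not described as a segment.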
